A study of Mus musculus with 8 samples.

Results

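10 genes that mark tissue macrophages, Csf1r, Mrc1, Ptprc, Fcer1g, Tyrobp, C1qa, C1qb, C1qc, Aif1 and Cd68, were taken from the deposited expression table by their symbols, and all 10 were found among its 24341 genes. The table gives FPKM, a count of sequenced fragments scaled to the length of the transcript and to the size of the library, for total RNA of 8 individual mouse pancreas buds at E11.0, a stage of about 40 somites. 5 buds were WT. The other 3 were Lats1/2-null (Pdx1Creearly;Lats1f/f;Lats2f/f): a Cre transgene driven by the Pdx1 promoter deletes the floxed genes of LATS1 and LATS2, kinases of the Hippo pathway. The labels give the strain of both genotypes as CD1, and in both the mesenchyme had been pulled off the bud with forceps before 35 ng of total RNA was taken. Pdx1 drives Cre in the pancreatic epithelium, so that macrophages are not the cells in which it is meant to act. The question was whether macrophage transcripts already differed between the genotypes at this stage, as a check for early inflammation. The methods allow heterozygous littermates as controls, while the labels of these 5 say WT. They name littermates in general, but no source used here states which of these buds shared a litter. The tests take each bud as independent, and litters could not be modelled.

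Macrophages of an embryo at this stage descend from yolk sac progenitors and seed each organ through the blood, before the bone marrow forms. They live on signals through the receptor CSF1R, clear dying cells, and make most of the complement protein C1q of a tissue. They are a minor population of a pancreas bud. Though the mesenchyme had been pulled off, markers of mesenchyme, vessels and blood were read beside those of epithelium, and the shares of cells were not measured. In RNA from all cells of such a bud, fewer macrophages and less RNA per macrophage cannot be told apart.

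All 10 genes were detected in all 8 libraries, at low levels. The lowest single value was 0.238 FPKM and the highest 6.31 FPKM. Their means over the 8 libraries lay between 0.735 and 3.40 FPKM, at percentiles 4.17 to 25.2 of the 13777 tested genes, those whose mean reached 0.5 FPKM. None of the 10 passed the test between genotypes (limma on log2(FPKM + 1), Benjamini-Hochberg adjusted p under 0.05), and 2 of all tested genes did, or 0.0145%. Fcer1g was the exception in its values, since its 3 Lats1/2-null libraries all lay above its 5 WT libraries, which also held for 4.46% of all tested genes. The other 9 genes overlapped between genotypes.

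The table carries no read counts, and FPKM in a short transcript rest on few fragments. Low values of genes with 1 exon and 1 transcript of at least 1500 bases in GENCODE M21 gave a rough guide. The steps that held most of those genes within 3% put the worth of 1 fragment in a transcript of 1000 bases between 0.099 and 0.134 FPKM. Only 19 to 29 of 393 such genes lay on these steps. With the longest coding transcript of each gene, the 8 values of Mrc1 would rest on about 79 to 221 fragments and those of Csf1r on 79 to 139. Those of Tyrobp would rest on 10 to 36, of Fcer1g on 12 to 37, of C1qa on 4 to 26 and of Aif1 on 2 to 28. The genes with the widest spread between buds of 1 genotype were among those with the fewest fragments: the coefficient of variation over the WT buds was 66.4% for Aif1, 62.3% for C1qa and 49.9% for Tyrobp, against 21.95% for Csf1r. Fcer1g was an exception, with few fragments and the narrowest WT spread.

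Mrc1 and Fcer1g were the members whose values followed the other members most and least closely over the 8 libraries, with Pearson's r of 0.824 and 0.159 with the mean of the other 9. Their DNA upstream of the transcript start is shown with matches in capitals to GAGGAA, the core of sites bound by PU.1, the ETS family factor on which macrophages depend. A match on the opposite strand reads TTCCTC. The sequences are the 250 bases before the start, 5′ to 3′ on the strand of the gene, from RefSeq on GRCm38.p6, at chr2:14229164-14229413 for Mrc1 (plus strand) and chr1:171234350-171234599 for Fcer1g (minus strand).
Mrc1: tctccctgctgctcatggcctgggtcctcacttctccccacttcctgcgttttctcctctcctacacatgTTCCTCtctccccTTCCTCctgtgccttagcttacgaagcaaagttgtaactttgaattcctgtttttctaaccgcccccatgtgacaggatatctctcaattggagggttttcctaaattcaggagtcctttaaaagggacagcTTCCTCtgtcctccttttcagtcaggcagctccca
Fcer1g: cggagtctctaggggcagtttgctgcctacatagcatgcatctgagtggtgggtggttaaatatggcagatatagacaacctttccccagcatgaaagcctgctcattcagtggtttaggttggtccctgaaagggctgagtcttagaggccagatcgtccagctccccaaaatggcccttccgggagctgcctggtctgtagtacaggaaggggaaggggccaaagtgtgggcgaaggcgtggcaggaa
The Mrc1 sequence holds 3 matches, all on the opposite strand, and the Fcer1g sequence holds none. Aif1, whose r was nearly as low at 0.193, holds 1 match in its 250 bases. Whether matches to these letters go with r was not tested. Windows from 250 bases before to 50 bases after the start were found in the same table for 7 of the 10 members, as 8 entries because Ptprc has a pair of starts. 6 of the 8 hold GAGGAA on either strand, as do 9289 of the 32851 promoters in the table, or 28.3%. GGAATG, the core of sites bound by the TEAD factors through which the Hippo pathway acts, is in none of the 8 and in 14.7% of all promoters. The letters of these motifs can overlap, but no window of a member held both. Entries for Csf1r, Tyrobp and C1qa were not analysed here.

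The first group of members are proteins of the macrophage surface. Csf1r encodes the receptor for the growth factors CSF1 and IL-34. It stood at 3.11, 2.99, 1.79, 2.23 and 2.37 FPKM in WT replicates 1 to 5 and at 2.89, 1.82 and 2.55 FPKM in Lats1/2-null replicates 1 to 3. Both genotypes covered the same range, with means of 2.50 ± 0.548 (SD, n = 5) and 2.42 ± 0.546 FPKM (SD, n = 3). The difference on the log2(FPKM + 1) scale, null minus WT, was -0.03 with a 95% interval from -0.42 to 0.36 and an adjusted p of 0.964 (limma).

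Mrc1 encodes the mannose receptor CD206, a scavenger receptor of resident macrophages. Its level, behind which stood the most fragments, was 3.78, 3.26, 2.02, 2.85 and 1.97 FPKM in the WT buds and 4.34, 2.95 and 2.83 FPKM in the null buds. Null replicate 1 was the highest of the 8 libraries and the other two null buds lay among the WT values. The difference was 0.22 (interval -0.23 to 0.67, adjusted p = 0.737, limma). Ptprc encodes the phosphatase CD45, which all white blood cells carry, and the locus lies at chr1:138062859-138175305. It was the lowest of the 10 genes, at 1.06, 0.980, 0.238, 0.872 and 0.658 FPKM in WT and 0.814, 0.821 and 0.434 FPKM in null buds. All 3 null values were below the WT median, and the difference was -0.05 (interval -0.50 to 0.40, adjusted p = 0.954, limma).

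The adaptors Fcer1g and Tyrobp pass signals from receptors that have no signaling domain of their own. FCER1G is the common gamma chain of Fc receptors, and TYROBP, or DAP12, serves TREM2 and related receptors. Fcer1g, at chr1:171229572-171234349, read 2.33, 1.96, 2.00, 2.41 and 2.26 FPKM in WT buds, the narrowest WT spread of the 10 genes with a coefficient of variation of 9.23%. In the null buds it read 3.17, 5.39 and 3.73 FPKM, each above the highest WT bud. The means were 2.19 ± 0.202 (SD, n = 5) and 4.10 ± 1.15 FPKM (SD, n = 3), a ratio of 1.87. On the log2(FPKM + 1) scale the difference was 0.65 ± 0.15 (SE), with a 95% interval from 0.31 to 1.00. The exact two-sided permutation test over all 56 assignments of the libraries to groups of 5 and 3 gave p = 0.0179, the smallest it can give, and the p adjusted over all tested genes was 0.196 (limma). Fcer1g was the 1 member of 10 with an unadjusted limma p under 0.05, a share to be read against the 11.3% of all tested genes that met it. Likewise, 1 of 10 members did not overlap between genotypes in either direction, against 7.51% of all tested genes. Over the 16 alternative settings its log2 difference ran from 0.48 to 0.84 and its adjusted p from 0.105 to 0.479.

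Tyrobp, at chr7:30413788-30417579, did not share that order. It read 3.34, 5.05, 1.71, 1.82 and 2.17 FPKM in WT and 6.31, 2.96 and 1.82 FPKM in null buds. The highest value of the whole set was that of null replicate 1, and null replicate 3 lay near the WT minimum. The difference was 0.25 (interval -0.54 to 1.05, adjusted p = 0.839, limma) and changed sign without null replicate 1, to -0.12. The ratio of Fcer1g to Tyrobp was 0.697, 0.389, 1.17, 1.33 and 1.04 in WT buds and 0.503, 1.82 and 2.05 in null buds, so that the genotypes overlapped.

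C1qa, C1qb and C1qc encode the A, B and C chains that assemble into C1q, the recognition molecule of the classical complement pathway. They are neighbours on chromosome 4, with C1qb at chr4:136880145-136886177, C1qc at chr4:136889802-136892914 and C1qa at chr4:136895916-136898844. C1qa was at 1.88, 2.66, 0.431, 1.31 and 0.804 FPKM in WT and at 2.04, 1.41 and 0.407 FPKM in null buds, and both genotypes ran from about the same low to a similar high. C1qb was at 3.94, 4.35, 2.09, 2.37 and 1.92 FPKM in WT buds, in which 2 buds stood well above the other 3. In null buds it was at 4.29, 4.21 and 4.06 FPKM, all between the 2 highest WT buds. C1qc was at 3.12, 4.61, 1.78, 2.18 and 2.77 FPKM in WT and at 2.22, 4.04 and 3.46 FPKM in null buds.

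The differences between genotypes were -0.07 for C1qa, 0.44 for C1qb and 0.14 for C1qc on the log2(FPKM + 1) scale. The interval for C1qb ran from -0.05 to 0.94, and the adjusted p was 0.957 for C1qa, 0.506 for C1qb and 0.877 for C1qc (limma). C1qb was above C1qa in 8 of 8 libraries, by 1.64 to 9.96 times with a median of 2.24, and C1qc was above C1qa in 8 of 8. C1qb was above C1qc in 6 of 8, with a mean difference of 0.13 ± 0.307 (SD, n = 8) on the log2(FPKM + 1) scale. In an exact sign-flip permutation test over the 8 libraries, C1qb and C1qa differed with p = 0.00781, the smallest it can give, C1qc and C1qa with the same p, and C1qb and C1qc with p = 0.305. FPKM are scaled to transcript length, which corrects for length only. A bias of 1 gene that repeats in every library would give the same p, so the test cannot tell it from a difference in level. C1qa rests on an estimated 4 to 26 fragments.

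The last members are proteins inside the cell. Aif1, at chr17:35170992-35176001, encodes IBA1, an actin-binding protein used as a stain for macrophages and microglia. It had the widest spread of all, with 0.539, 0.685, 0.278, 1.43 and 1.74 FPKM in WT and 3.32, 0.777 and 2.35 FPKM in null buds. Null replicates 1 and 3 lay above every WT bud while null replicate 2 lay among them. The difference was 0.67 (interval -0.09 to 1.43, adjusted p = 0.517, limma; exact permutation p = 0.125), close to that of Fcer1g but with a standard error of 0.34 against 0.15. It ran from 0.40 to 1.14 over 15 alternative settings, with an unadjusted limma p under 0.05 in 4 of them and a lowest adjusted p of 0.0891. Without null replicate 1 it was 0.40, and without null replicate 2 it was 1.04. Cd68, at chr11:69664213-69666170, encodes a glycoprotein of macrophage lysosomes. It was at 3.33, 3.70, 1.83, 3.50 and 2.61 FPKM in WT and at 2.47, 2.81 and 2.96 FPKM in null buds, all 3 below the WT median of 3.33. Its difference was -0.07 (interval -0.48 to 0.34, adjusted p = 0.915, limma).

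**Figure D1:**
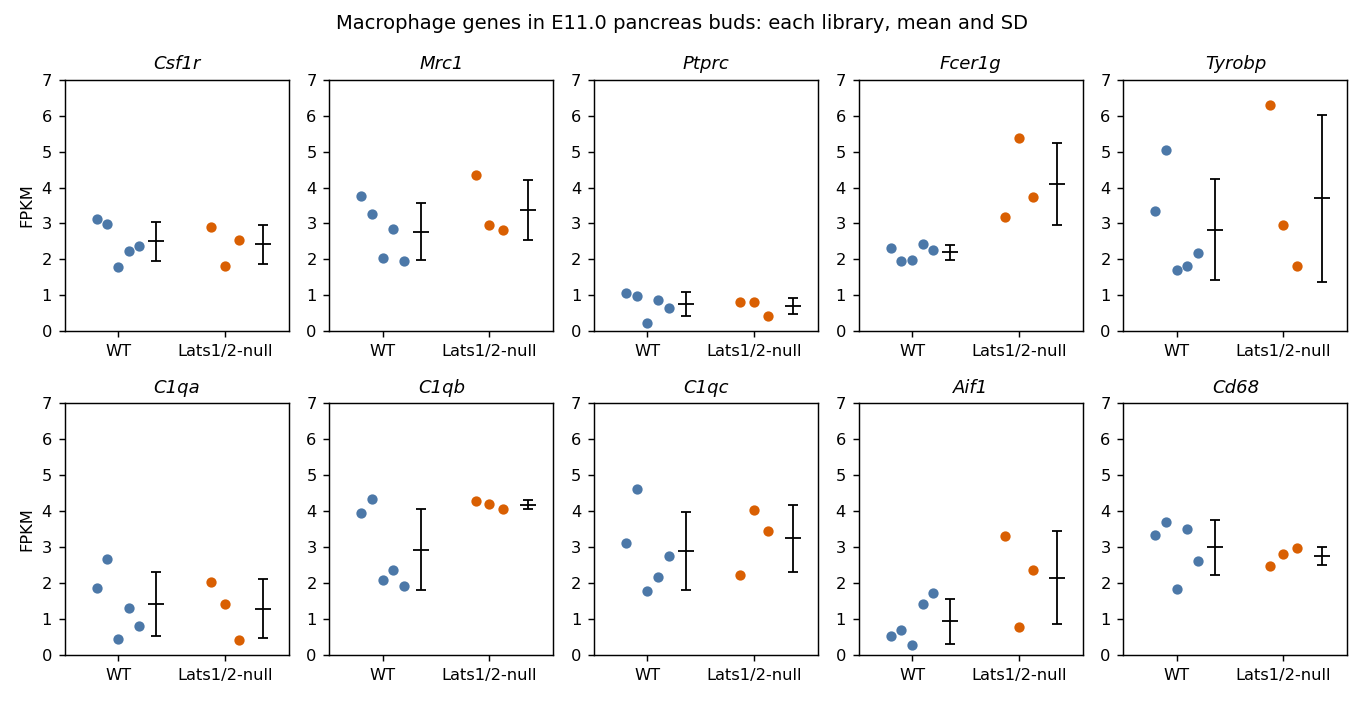
FPKM of the 10 macrophage genes in each library, with 5 WT buds (blue) and 3 Lats1/2-null buds (orange) in replicate order from left to right, and the mean and SD in black. All axes run from 0 to 7 FPKM. Fcer1g is the panel in which every orange point (3.17 to 5.39) lies above every blue point (1.96 to 2.41).

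Across the 10 genes, 6 differences were above 0 and 4 below. Their median was 0.18 on the log2(FPKM + 1) scale, beside -0.01 over all 13777 tested genes. The sum of the 10 genes was 26.4, 30.2, 14.2, 20.96 and 19.3 FPKM in WT buds and 31.9, 27.2 and 24.6 FPKM in null buds. Null replicate 1 had the highest sum and WT replicate 3 the lowest, and the other null buds lay among the WT values. The 95% intervals of 8 genes stayed below a difference of 1 on this scale, those of Aif1 and Tyrobp did not, and no interval reached down to -1. Smaller differences lay within most of the intervals, so that equal levels were not shown. The scale understates the change of low genes.

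**Figure D2:**
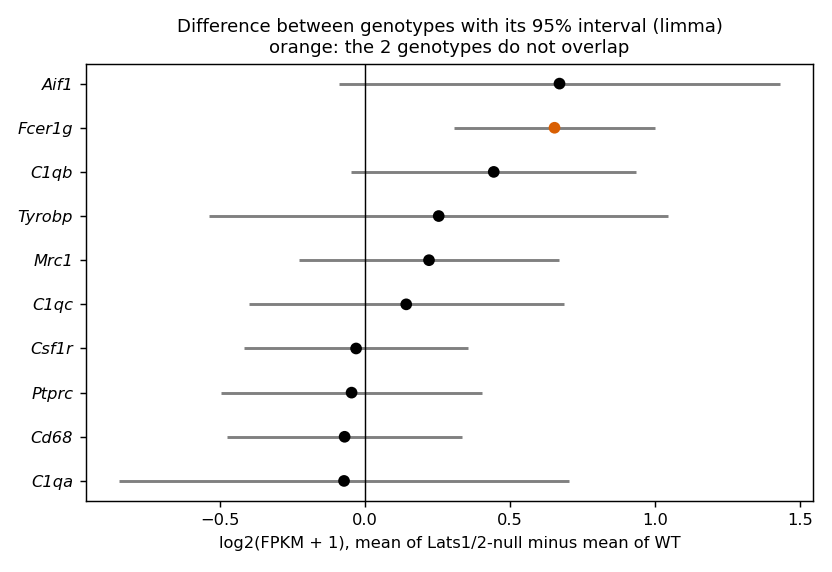
Difference between the genotype means of log2(FPKM + 1), Lats1/2-null minus WT, for each of the 10 genes (points) with its 95% limma interval (lines), sorted by size. The intervals of 9 genes cross 0, and that of Fcer1g, in orange, runs from 0.31 to 1.00.

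By mean level the genes ran in the order C1qb, Tyrobp, C1qc, Mrc1, Fcer1g, Cd68, Csf1r, Aif1, C1qa and Ptprc, from 3.40 to 0.735 FPKM. None of the 9 pairs of neighbours in this order differed beyond the spread between libraries after adjustment. The nearest to it were Csf1r above Aif1 in 7 of 8 libraries and C1qa above Ptprc in 7 of 8, each with an adjusted p of 0.105 (exact sign-flip permutation test over 8 libraries, Benjamini-Hochberg over 9 pairs).

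Some buds were low or high in most of the 10 genes. WT replicate 3 had the lowest value of 6 of the 10 genes and the highest of none, and WT replicate 2 had the highest of 4. Null replicate 1 had the highest of 3. Each gene's r with the mean of the other 9 over the 8 libraries was 0.824 for Mrc1, 0.799 for C1qb, 0.756 for Ptprc, 0.754 for C1qa, 0.722 for Tyrobp and 0.636 for Csf1r. It was 0.593 for Cd68 and 0.518 for C1qc. Aif1, at 0.193, and Fcer1g, at 0.159, stood apart from these 8 genes. These correlations are descriptions over 8 libraries that also share their depth and tissue makeup.

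**Figure D3:**
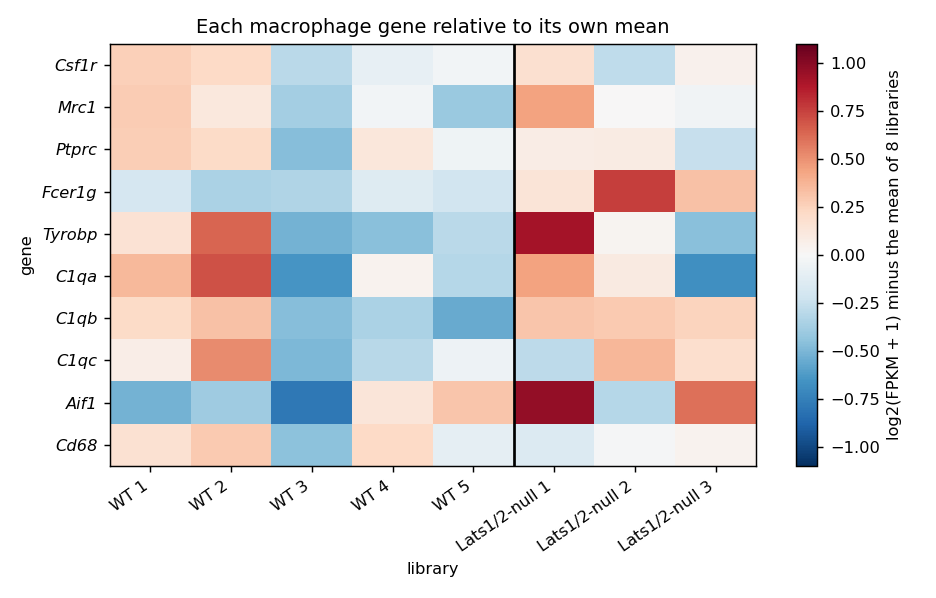
Each gene's log2(FPKM + 1) minus its own mean over the 8 libraries, with libraries in columns (5 WT left of the line, 3 Lats1/2-null right of it) and genes in rows. WT replicate 3 is blue in every row, WT replicates 1 and 2 are red in 8 of the 10, and Fcer1g and Aif1 depart from that pattern.

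Among the 13767 other tested genes, the 10 that followed the mean of the standardized member values most closely were Tab1, Ccny, Orai3, Arpin, Frmd4a, Col16a1, Ankfy1, Farp1, Nrros and Sharpin, with r from 0.979 to 0.909 over the 8 libraries. None of the 10 is on the lists of macrophage genes used here, which do not hold every gene that macrophages express. The listed gene that came closest was Runx1, a transcription factor of blood cell formation, at rank 14 with r = 0.891. It was followed by Ctss, the lysosomal protease cathepsin S (0.867), C3ar1, the receptor for complement fragment C3a (0.84), Lyz2, lysozyme (0.827), and Spi1, which encodes PU.1 (0.799). The median r was 0.531 over 5 tested macrophage surface receptors and 0.454 over 16 tested intracellular and secreted macrophage proteins, beside -0.01 over all genes. It was 0.339 over 8 macrophage transcription factors, with Maf at -0.359 and Cebpb, another of them, at -0.321. It was also above that of all genes for markers of other cells, at 0.381 over 8 pancreatic epithelium and 0.304 over 11 mesenchyme markers, with Pdgfrb at 0.674 and Postn at 0.656.

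Further macrophage genes were also low and gave no call. Of 20 further surface receptors, 5 reached the minimum mean and 0 passed the test, with Cd163 and Marco listed at 0 in all libraries. Adgre1, which encodes the macrophage antigen F4/80, lay between 0.04 and 0.988 FPKM. Stab1, a scavenger receptor that endothelium also expresses, had the highest mean of this list and was at 5.37 to 7.86 FPKM in WT and at 4.78, 4.66 and 4.32 FPKM in null buds. Lyve1, which marks some resident macrophages and also lymphatic endothelium, was at 1.56 to 6.71 FPKM in WT and 2.16, 2.12 and 0.811 FPKM in null buds. Stab1 did not overlap between genotypes and had an adjusted p of 0.326, and for Lyve1 it was 0.455 (limma).

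Of 17 intracellular and secreted proteins, 16 were tested, with 7 differences above 0, 9 below and 0 calls. Lcp1, the actin-bundling protein of blood cells, had the highest mean, at 6.45 to 10.6 FPKM in WT and 5.62 to 8.16 FPKM in null buds. Ctss was at 2.80, 3.03, 1.25, 2.79 and 1.54 FPKM in WT and at 4.396, 3.49 and 3.46 FPKM in null buds, without overlap (log2 difference 0.58, adjusted p = 0.377, limma). F13a1, a coagulation factor subunit that resident macrophages make, overlapped between genotypes, with a difference of 0.41 and an adjusted p of 0.580 (limma).

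Of 9 macrophage transcription factors, 8 were tested and 0 passed. Maf was at 7.25 to 10.7 FPKM in WT and at 6.26, 8.05 and 3.78 FPKM in null buds (difference -0.50, adjusted p = 0.402, limma). Irf5, the member of this list with the highest mean, had a difference of -0.55 (adjusted p = 0.476, limma). The 8 tested factors had a median difference of 0.13.

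Ligands and partners of the members gave no call, with 3 of 8 colony-stimulating factor genes tested. Csf1, a ligand of CSF1R, was at 4.25, 3.35, 2.31, 2.53 and 2.05 FPKM in WT and at 2.38, 2.17 and 1.23 FPKM in null buds (difference -0.41, adjusted p = 0.537, limma). Il34, its other ligand, did not exceed 0.435 FPKM, and Csf2 and Csf3 were listed at 0 in all libraries. The receptor subunit Csf2ra, with the highest mean of this list, differed by 0.06 (adjusted p = 0.954, limma), and Csf2rb by 0.25 (adjusted p = 0.727). Of 10 kinases and other proteins that act below the adaptors, 8 were tested, with a median difference of 0.03 and 0 calls. Syk, the kinase recruited by FCER1G and TYROBP, was at 2.28 to 2.98 FPKM in WT and 1.82 to 2.65 FPKM in null buds (difference -0.16, adjusted p = 0.707, limma). Vav1 had a difference of -0.12 (adjusted p = 0.829), and Grb2, which most cells express and which had the highest mean here, of 0.04 (adjusted p = 0.907).

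The complement genes beyond C1q were mostly low. Of 19, 11 were tested and 0 passed. The proteases C1ra and C1s1, which C1q activates, stayed at or below 0.286 FPKM, while C4b, Cfd and Itgax were listed at 0. Masp1, a protease of the lectin pathway, was at 1.48, 1.44, 0.154, 1.40 and 0.615 FPKM in WT and at 2.03, 2.04 and 5.80 FPKM in null buds, without overlap (difference 1.04, adjusted p = 0.325, limma). Cd55, which protects cells from complement, was at 3.11 to 13.2 FPKM in WT and at 3.04 to 3.84 FPKM in null buds (difference -0.81, adjusted p = 0.399, limma). The sum of this list is carried by Calr, a chaperone of every cell at 606 to 782 FPKM with a difference of -0.03. Without it the sum was 30.4 to 42.6 FPKM in WT and 32.4 to 37.7 FPKM in null buds.

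Most inflammatory effector genes were at or near 0 in both genotypes. Of 17 such genes, Il6, Il10, Il12b, Chil3, Retnla, Saa3 and Lcn2 were listed at 0 in all 8 libraries, and 13 never reached 0.5 FPKM in any library. Il1b reached 0.168 FPKM at most and Tnf 0.275 FPKM. Il18 and Nos2 reached 0.795 and 0.741 FPKM in null replicate 3, and Ptgs2 reached 0.791 FPKM in WT replicate 1, values like those of Ptprc. The 1 gene that reached the minimum mean was Arg1, arginase, which alternatively activated macrophages express but other embryonic cells may too. It was at 23.9, 20.0, 28.0, 27.6 and 34.2 FPKM in WT and at 36.7, 26.4 and 49.5 FPKM in null buds, with overlap (difference 0.45, adjusted p = 0.472, limma). Its r with the member mean was -0.17. The other 16 genes summed to 0.619 to 2.33 FPKM in WT and 0.747 to 1.80 FPKM in null buds.

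Markers of other blood cells that share some of the members were counted in the same way. Of 10 neutrophil markers 2 were tested, and Ctsg was at 0. Mpo varied from 0.0824 to 6.17 FPKM in WT and 0.417 to 2.33 FPKM in null buds (adjusted p = 0.909, limma). Prtn3, a granule protease of neutrophils and their precursors, was at 1.66, 1.09, 1.104, 1.26 and 3.36 FPKM in WT and at 0, 0.572 and 0.463 FPKM in null buds, without overlap (difference -0.97, adjusted p = 0.264, limma). No lymphocyte marker of 12 and no mast cell marker of 6 reached the minimum mean. The summed lymphocyte markers were 0.401 to 1.02 FPKM in WT and 0.370 to 0.964 FPKM in null buds, with Cd79b the highest of them and Cd3e, Ncr1 and Klrb1c at 0. Mast cells, which also use FCER1G, gave summed markers of 0.0422 to 0.304 FPKM in WT and 0 to 0.655 FPKM in null buds, with Mcpt4, Tpsb2, Cma1 and Fcer1a at 0 and Cpa3 the highest.

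**Figure D4:**
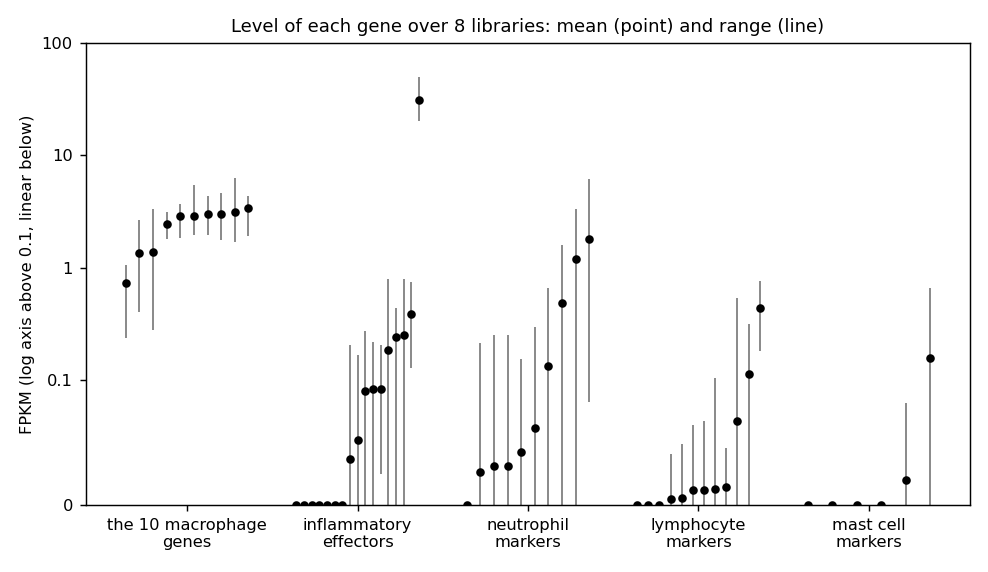
Mean FPKM over the 8 libraries (points) and the range from the lowest to the highest library (lines) for each of the 10 macrophage genes, 17 inflammatory effectors and the neutrophil, lymphocyte and mast cell markers. The axis is logarithmic above 0.1 FPKM and linear below. The macrophage genes have means from 0.735 to 3.40 FPKM, and the 1 effector above them is Arg1 with a mean of 30.8 FPKM.

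Platelet precursors carry FCER1G as well. Among the lists of blood cells other than macrophages, their markers had the highest sum after those of red cells, most of it from Pf4. The 8 megakaryocyte markers summed to 24.1 to 55.9 FPKM in WT and 39.5 to 69.9 FPKM in null buds. Pf4, which some macrophages also express, had a mean of 36.4 FPKM, and the next gene, Itgb3, of 3.36 FPKM. Pf4 was at 17.1 to 41.1 FPKM in WT and 27.9 to 55.2 FPKM in null buds (difference 0.40, adjusted p = 0.663, limma), and Ppbp had a difference of -0.33 (adjusted p = 0.723). Over 7 tested megakaryocyte markers the median difference was 0.03. Red blood cell markers varied widely between WT buds, with summed FPKM from 2634 to 15770 in WT and 7968 to 10170 in null buds. Hbb-y, Epb4.2 and Slc4a1 of that list all overlapped, with adjusted p of 0.887, 0.631 and 0.654 (limma).

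Markers of the other cell types of the bud are given beside these values. Of the epithelium, endothelium and mesenchyme markers tested, 0 passed, and a change in the share of a cell type cannot be told apart from a change in RNA per cell. The pancreatic epithelium markers summed to 205 to 266 FPKM in WT and to 386 to 925 FPKM in null buds, and 6 of 8 genes were higher without overlap, against 4.46% of all tested genes. Of the other two, Pdx1 had a difference of 0.57 and Ptf1a of -0.15, both with overlap. Sox9 stood at 25.7 to 33.6 FPKM in WT and 64.4, 48.3 and 110 FPKM in null buds (difference 1.25, adjusted p = 0.116, limma). Nkx6-1 differed by 1.47 (adjusted p = 0.124) and Krt18, the highest of this list, by 1.19 (adjusted p = 0.154). Endothelium markers had a median difference of -0.38 over 12 genes, all below 0, and a summed level of 179 to 292 FPKM in WT and 129 to 197 FPKM in null buds. Plvap, Emcn and Tek had differences of -0.25, -0.56 and -0.71 (adjusted p of 0.638, 0.238 and 0.307, limma). Mesenchyme markers had a median of -0.39 over 11 genes, 10 of them below 0, with a sum of 298 to 388 FPKM in WT and 148 to 288 FPKM in null buds. Col3a1, Pdgfra and Foxf1 differed by -0.62, -0.90 and -0.95 (adjusted p of 0.399, 0.292 and 0.330, limma). The part of these differences in the values of the 10 macrophage genes, Fcer1g included, was not tested. Null replicate 3 was the farthest from WT in the epithelium, endothelium and mesenchyme lists. Without it the log2 difference of Fcer1g was 0.70, and it lay between 0.48 and 0.79 when any 1 library was left out. Null replicates 1 and 2 were also above every WT bud in the epithelium list, at 0.75 and 0.55 over its WT mean. Leaving out 1 library therefore does not test the part of tissue makeup.

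**Figure D5:**
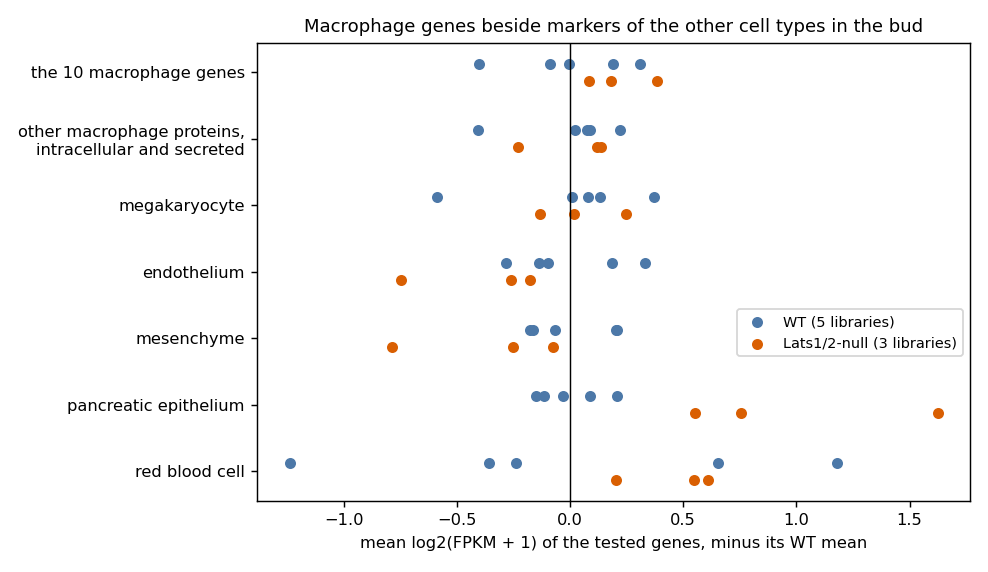
Mean log2(FPKM + 1) over the tested genes of each list minus its mean in WT, for 5 WT (blue) and 3 Lats1/2-null libraries (orange). The macrophage genes overlap between genotypes (0.08 to 0.38 in null buds), the epithelium markers do not (0.55 to 1.63), and null replicate 3 is lowest for endothelium and mesenchyme, at -0.75 and -0.79.

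The deleted kinases give a limited check of the labels. Lats1 was at 14.1 to 16.6 FPKM in WT and 12.3, 13.8 and 10.1 FPKM in null buds, without overlap (difference -0.35, adjusted p = 0.269, limma). Lats2 was at 11.6 to 14.7 FPKM in WT and 11.1 to 13.4 FPKM in null buds and overlapped (difference -0.16, adjusted p = 0.589). FPKM of a gene count its exons outside the floxed part and its RNA in cells without Cre, and their part here was not tested. Between 16117 and 16982 genes were above 0 in each library.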

How the data were processed

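Total RNA-seq of 8 pancreas buds (5 WT, 3 Lats1/2-null) was used as deposited. Per the labels and the methods, the authors trimmed reads with cutadapt 1.12, checked them with FastQC, aligned them to mm10 (GRCm38) with TopHat2 2.1.0, with the strand of the library set, and computed FPKM with Cufflinks and Cuffdiff 2.2.1. The deposited FPKM are described as quantile normalized, but their columns do not share 1 distribution. Status columns were not used.

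Genotypes and replicate numbers came from the labels. Genes whose mean reached 0.5 FPKM (13777, all 10 members among them) were compared with limma 3.58.1 (R 4.3.3, mean-variance trend) on log2(FPKM + 1), adjusted by Benjamini-Hochberg over all of them at 0.05. Single genes were also tested by exact two-sided permutation over 56 assignments of the libraries. No count model was used. On simulated data with independent noise per library, 172 of 200 genes changed by 1 log2 unit were recovered with 11 false calls. With no change there were 0 calls. The changed genes were drawn from those with a mean of at least 2 FPKM. Ptprc, C1qa and Aif1 lie below that mean, so the recovery does not cover them. For the other members it is a share over genes of all higher levels too, while no member lies above percentile 25.2 of the tested genes. Recovery at the levels and spreads of the members was not measured.

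The members, gene lists and tests were chosen with earlier results of these data known. Named were every member, from each other list the gene of highest mean and the 2 of smallest p, genes listed at 0, and the 10 genes most like the members. Adgre1, Il34, Il1b, Tnf, Il18, Nos2, Ptgs2, C1ra, C1s1, Cebpb, Pdx1, Ptf1a, Pdgfrb, Postn and the listed genes closest to the members were named after their values were seen. 1 gene that this rule names is not reported here. Starts were counted from 1. Promoters came from RefSeq on GRCm38.p6, lengths from GENCODE M21. Each library was left out in turn. Other alternatives were quantile normalization, array weights, median-ratio scaling, a fit without the trend, a replicate block, 0.1 as pseudocount, and a filter at 2 FPKM or none. Tables used Python 3.11.15 and pandas 2.3.3, and figures matplotlib 3.10.9.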

Additional observations from a re-analysis of the deposited data

How the results depend on the processing

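No member was called under any of the 16 alternatives, and of 157 member values 144 kept their direction. The median member difference, 0.18, was 0.24 with a pseudocount of 0.1. When 1 library was left out it ran from 0.03, without null replicate 1, to 0.28, without WT replicate 2. These moves were below the SD of the member mean between buds of a genotype, 0.241. That SD is not the error of a difference between genotypes, so it does not show that the median is stable. With array weights Csf1r, C1qa and C1qc changed sign, to 0.038, 0.14 and -0.15. Leaving out 1 library gave -0.13 to 0.10 for Csf1r, -0.17 to 0.068 for Ptprc, -0.31 to 0.24 for C1qa, -0.12 to 0.56 for Tyrobp, 0.068 to 0.31 for Mrc1, 0.005 to 0.33 for C1qc and 0.40 to 1.04 for Aif1. Mrc1, Fcer1g, C1qb, Aif1 and Cd68 kept their sign under all alternatives run. The number of calls over all genes, 2, was 18 with a pseudocount of 0.1, 174 with array weights, 1 without the trend, and 0 to 69 when 1 library was left out, with 69 without null replicate 2 and 19 without null replicate 3. The cause was not tested.

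With the replicate block, 1 gene of all and 0 members were called, and the median member difference was 0.06. Same-numbered buds had correlations of 0.085, -0.097 and 0.069 of their deviations, so the numbers were not taken to pair the buds, and nothing in the labels says that they do.

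FPKM without counts give no counting error. Aif1, C1qa, Tyrobp and Fcer1g rest on the fewest estimated fragments.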
